A study of Homo sapiens with 6 samples.

Results

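The genes described here are the protein-coding genes of human chromosome 13 that were expressed in HEK293 cells, 187 of the 58735 genes in the authors' table. They were chosen by position, by biotype and by a mean of at least 1 FPKM (fragments scaled by gene length and by library size) over all 6 libraries, so the mean level chose them and is given as a description only. Of 321 protein-coding genes on the chromosome, 29 were listed at 0 in every library, 93 lay above 0 and under 1 FPKM, 199 reached 1 FPKM, and 12 of these 199 were left out by name. PCDH9 (a protocadherin) and DCLK1 (a microtubule-binding kinase) lay just inside the threshold, with means of 1.14 and 1.19 FPKM. LMO7 (an adherens junction protein) and GGACT lay just outside it, with means of 0.953 and 0.937 FPKM.

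HEK293 is a human embryonic kidney cell line, and its RNA was sequenced from 2 derivatives. In the Y483E cells, tensin 2 with its tyrosine Y483 replaced by glutamate was stably expressed, and in the Y483F cells tensin 2 with phenylalanine at that residue. Glutamate is used to resemble a phosphorylated tyrosine, and phenylalanine cannot be phosphorylated. Each form had 3 libraries, made from poly-A RNA, and cells without introduced tensin 2 were not analysed here. The titles call the libraries biological replicates but name no separate cultures, so p-values measure the spread between these libraries. If each form was carried by 1 line, the mutation and the line cannot be told apart. The protocol names a directional and a non-directional library, so whether reads of genes that overlap on opposite strands were kept apart is not known.

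Chromosome 13 is acrocentric: its short arm holds repeats and ribosomal DNA, and its protein-coding genes lie on the long arm. It is poor in genes, with long stretches that hold few. Genes on it take part in nuclear import, the spindle, DNA end joining, ubiquitin transfer and early brain patterning, with no single pathway in common.

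Libraries held 17204498 to 23284592 reads in genes. Each of the 187 genes had between 47 and 14427 reads in every library. Of 7 markers of HEK293 cells, 4 (NEFL, INA, VIM and IRS4) were at 1 FPKM or more in every library. PAX2 (0.67 to 1.34 FPKM) and LHX1 (0.80 to 1.21 FPKM) fell below 1 FPKM in some libraries. NEFM, at 0.20 to 0.31 FPKM, lay below the fibroblast marker COL1A1 (0.61 to 0.78 FPKM). The 7 together summed to 281 to 304 FPKM in Y483E and 286 to 303 FPKM in Y483F, with IRS4 alone at 152 to 173 FPKM. Of 12 markers of liver, blood, fibroblast and keratinocyte cells, 0 reached 1 FPKM, and PTPRC, CD3E and KRT14 were at 0 in every library. Y483F replicate 1 stood apart from its group. On the first principal component of the 12833 genes tested, which held 40.9% of the variance, its coordinate was -5.7. The Y483E replicates were at -5.89, -4.94 and -13.36, and Y483F replicates 2 and 3 at 17.02 and 12.88. On the second component, with 21.6% of the variance, replicate 1 of both groups lay above 0, at 9.36 (Y483E) and 11.46 (Y483F). Replicates 2 and 3 lay below 0, at -8.74 and -9.03 in Y483E and -0.93 and -2.13 in Y483F. Column names of the deposited tables number the libraries of each group 1, 4 and 5, which are replicates 1, 2 and 3 here, with no word on what the numbers mean.

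The levels ranged widely along the chromosome. TFDP1, the DP1 subunit that pairs with E2F transcription factors, was the most abundant of the 187, the 1 gene with a mean above 100 FPKM, and it lies near the far end. It had 121, 109.9 and 114 FPKM in the Y483E replicates, against 132, 119 and 121 FPKM in the Y483F replicates. The groups overlapped, since Y483E replicate 1 was above Y483F replicate 2. POMP, a chaperone of proteasome assembly, averaged 85.8 ± 4.53 FPKM in Y483E and 82.4 ± 2.83 FPKM in Y483F (SD, n = 3 each). HMGB1, a chromatin protein with near-identical pseudogene copies that can share its reads, averaged 82.0 ± 2.94 FPKM in Y483E and 83.6 ± 3.93 FPKM in Y483F. IPO5, a nuclear import receptor, averaged 65.4 ± 3.16 FPKM in Y483E and 65.7 ± 4.43 FPKM in Y483F. CKAP2 (a spindle protein), MZT1 (a small subunit of the gamma-tubulin ring), ESD (an S-formylglutathione hydrolase), ZIC2 (a zinc finger factor of forebrain development), EBPL, SAP18 (a subunit of the Sin3 corepressor and of exon junction complexes), SLC7A1 (a transporter of arginine and lysine) and ARGLU1 (a splicing cofactor) completed the 12 most abundant. In all, 65 of the genes had a mean of at least 10 FPKM and 22 had a mean from 1 to under 2 FPKM.

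Most of the 187 genes were slightly lower in Y483E. On the log2(FPKM + 1) scale, the fold change of Y483E over Y483F lay below 0 for 136 genes and above 0 for 51, a share of 72.7% lower, against 47.2% of all 12833 genes tested. The median was -0.052, with quartiles at -0.10 and 0.0067, against 0.0070 over all genes tested. The differences were small, from -0.38 for COMMD6 to 0.18 for SLC7A1. In bulk RNA, fewer cells with a transcript and less of it per cell cannot be told apart. Without Y483F replicate 1 the median was -0.024, and 110 genes (58.8%) were lower, against 44.0% of all genes tested.

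No gene of the 187 passed the test. In limma, 0 of 187 had an adjusted p under 0.05, beside 0.0% of all genes tested, and the smallest adjusted p among them was 0.257. At an unadjusted p under 0.05 there were 20 genes (10.7%) by limma, below the 12.2% of all genes tested. Of these, 18 were lower in Y483E, where 5.7% of all genes tested were lower at that p, and 2, SLC7A1 and UBL3, were higher, where 6.51% of all genes tested were. On whole reads recovered from the FPKM values, edgeR called 0 of the 187, beside 0.0438% of its 15992 genes, and had 28 of them at an unadjusted p under 0.05, beside 13.4% of its genes. DESeq2 on the same reads called 3, ANKRD10, ZIC5 and NAA16, all lower in Y483E, beside 0.946% of the 13322 genes it gave an adjusted p. With array weights, limma called 21 of the 187, 18 lower and 3 higher, beside 14.7% of all genes tested. With a term for library number 1 against 4 and 5, edgeR called 5, all lower in Y483E (NAA16, LCP1, ZIC5, TPP2 and ANKRD10), beside 0.969% of its genes.

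In 27 of the 187 genes (14.4%) every Y483E library lay below every Y483F library, against 7.37% of all genes tested. In 5 genes (2.67%) every Y483E library lay above every Y483F library, against 9.72% of all genes tested, and in 155 the groups overlapped. The 5 higher genes were UBL3, NBEA, LHFPL6, LACC1 and DIAPH3. Without Y483F replicate 1, where separation is easier to reach, 42 genes (22.5%) lay below and 21 (11.2%) above, against 19.0% and 23.6% of all genes tested.

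**Figure D1:**
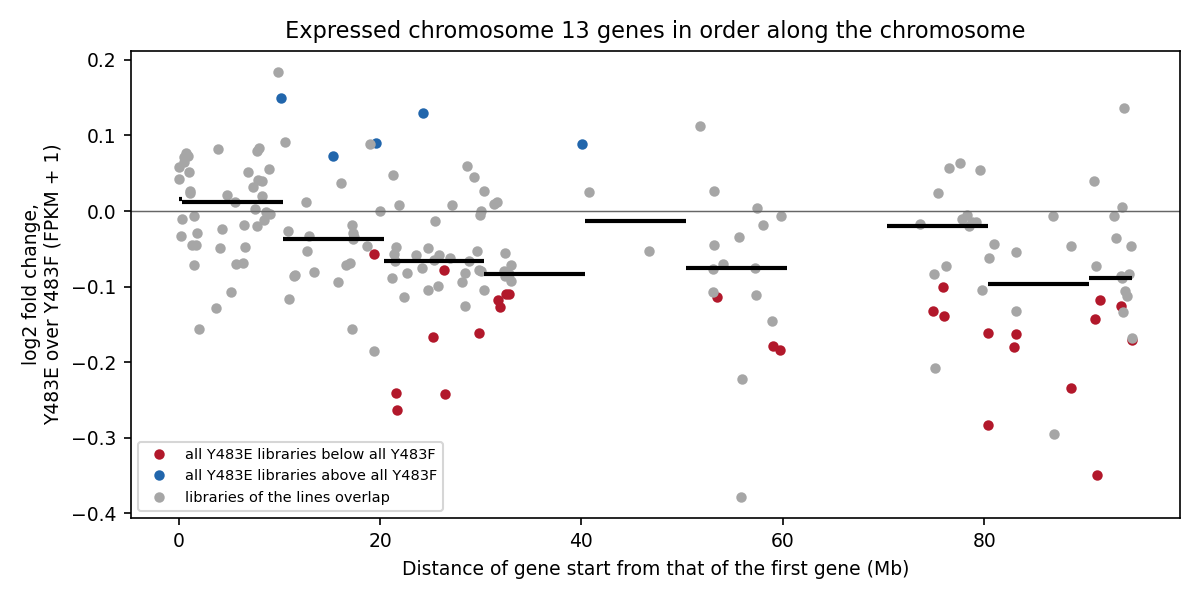
Each point is 1 of the 187 genes, placed by the distance of its start from that of MPHOSPH8, the first of them (x axis, Mb), and by its log2 fold change of Y483E over Y483F on FPKM + 1 (y axis). Red marks the 27 genes with all Y483E libraries below all Y483F libraries, blue the 5 with all above, grey the 155 that overlap, and black bars the medians of 10 Mb bins of chromosome position. Points near the first gene lie on both sides of 0, and red points begin about 20 Mb further on.

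The lower values were not spread evenly along the chromosome. Positions in the authors' table equalled those of GENCODE 29 on GRCh38 for all 187 genes. The genes that start before 30 Mb numbered 43, of which 20 were lower in Y483E, with a median log2 fold change of 0.011. The 144 that start at or past 30 Mb included 116 lower (80.6%), with a median of -0.070. All 27 genes with every Y483E library below every Y483F library were among these 144 (18.8%), and 0 were among the first 43. The boundary at 30 Mb was chosen after the values had been seen. Without Y483F replicate 1 the medians were 0.042 before 30 Mb and -0.040 from there on, with 10 of 43 and 100 of 144 lower.

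By 10 Mb bins, the median was 0.016 over the 4 genes from 10 Mb and 0.011 over the 39 genes from 20 Mb, where POMP and SLC7A1 lie. It was -0.036 over 25 genes from 30 Mb, -0.066 over 38 genes from 40 Mb and -0.083 over 13 genes from 50 Mb. The bin from 60 Mb held just TDRD3 (a methylarginine reader) and PCDH9, and no gene of the 187 started between 80 and 90 Mb. The median was -0.076 over 18 genes from 70 Mb, -0.019 over 19 genes from 90 Mb, -0.097 over 10 genes from 100 Mb and -0.089 over 19 genes from 110 Mb. All 10 genes from 100 to 110 Mb were lower in Y483E. With Y483F replicate 1 left out, the median was 0.048 from 20 Mb, -0.019 from 30 Mb, -0.045 from 40 Mb, -0.052 from 50 Mb, -0.024 from 70 Mb and -0.018 from 90 Mb. Across the 187 genes, Spearman's rho of the fold change with start position was -0.38, with mean FPKM -0.11 and with gene length 0.062. With start position it was -0.13 for the difference between the libraries numbered 1 and -0.35 for that between numbers 4 and 5. Genes of 1 chromosome share libraries and neighbours, so these are descriptions.

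**Figure D2:**
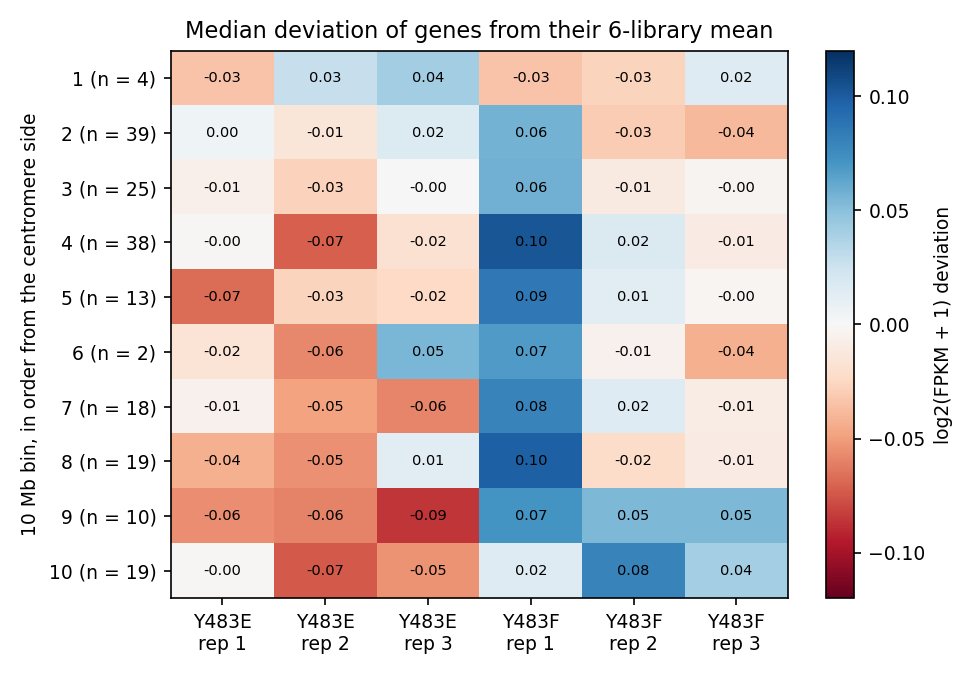
Rows are the 10 Mb bins that hold any of the 187 genes, numbered from the centromere side with their number of genes, and columns are the 3 Y483E and 3 Y483F libraries. Colour and numbers give the median deviation of the bin's genes from their mean over 6 libraries, in log2(FPKM + 1). Y483F replicate 1 is above 0 in bins 2 to 10, while Y483F replicates 2 and 3 are highest in bins 9 and 10.

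Which Y483F libraries carried the difference varied along the chromosome. Over all 187 genes, the median deviation from the mean of 6 libraries was -0.010, -0.047 and -0.014 in the Y483E replicates and 0.072, 0.0017 and -0.0083 in the Y483F replicates. Y483F replicate 1 was thus the one library well above 0. From 100 Mb to 110 Mb, in contrast, the 3 Y483E libraries were all below 0, at -0.055, -0.060 and -0.086, and the 3 Y483F libraries all above it, at 0.072, 0.054 and 0.054. The bin from 110 Mb had -0.0013, -0.074 and -0.054 in the Y483E libraries and all 3 Y483F libraries above 0. Without Y483F replicate 1, the medians of these last 2 bins were -0.11 and -0.11, with 9 of 10 and 16 of 19 genes lower.

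Between the libraries numbered 1 alone, the median difference was -0.077, with 148 of the 187 (79.1%) lower in Y483E, against 51.5% of all genes tested. Between those numbered 4 and 5 it was -0.029, with 110 (58.8%) lower, against 45.4%. In both comparisons 90 genes (48.1%) were lower, against 24.3% of all genes tested, and 19 were higher. Before 30 Mb the medians differed in sign, -0.049 for number 1 and 0.036 for numbers 4 and 5. From 30 Mb on they were -0.10 for number 1 and -0.050 for numbers 4 and 5. Within numbers 4 and 5, edgeR called 22 of the 187 (beside 15.0% of its genes), 19 lower and 3 higher in Y483E, where it called 7.98% of all its genes lower and 7.07% higher. The 3 higher genes were SLC7A1, ITM2B (an integral membrane protein whose mutations cause familial dementia) and TMCO3. Limma called 10 of the 187 within numbers 4 and 5, beside 5.71% of all genes tested.

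Promoters of 5 genes at either end of the range of fold changes are shown, because COMMD6, LIG4 and NAA16 hold one motif that ANKRD10 and SLC7A1 lack. Each is the 250 bases before the RefSeq start site on GRCh38.p14, 5′ to 3′ on the gene's strand. COMMD6 is at chr13:75549440-75549689 (minus strand), LIG4 at chr13:108218350-108218599 (minus), NAA16 at chr13:41311017-41311266 (plus), ANKRD10 at chr13:110915070-110915319 (minus) and SLC7A1 at chr13:29595689-29595938 (minus). Capitals mark GCATGCGC on either strand, the core of the palindromic site of NRF1 (a regulator of genes for mitochondria), in COMMD6, LIG4 and NAA16. In ANKRD10 and SLC7A1 they mark the GC box GGGCGG on either strand, the kind of site bound by SP1.
COMMD6: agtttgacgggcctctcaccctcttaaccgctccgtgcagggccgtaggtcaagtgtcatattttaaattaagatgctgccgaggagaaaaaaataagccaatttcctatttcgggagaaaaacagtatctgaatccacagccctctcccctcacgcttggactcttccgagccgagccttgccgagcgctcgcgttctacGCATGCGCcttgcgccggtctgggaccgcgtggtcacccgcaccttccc
LIG4: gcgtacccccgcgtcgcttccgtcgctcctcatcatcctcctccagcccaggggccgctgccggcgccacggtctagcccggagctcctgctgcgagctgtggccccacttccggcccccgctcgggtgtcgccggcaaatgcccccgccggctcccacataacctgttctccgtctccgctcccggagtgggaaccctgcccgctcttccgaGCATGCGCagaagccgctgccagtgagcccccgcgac
NAA16: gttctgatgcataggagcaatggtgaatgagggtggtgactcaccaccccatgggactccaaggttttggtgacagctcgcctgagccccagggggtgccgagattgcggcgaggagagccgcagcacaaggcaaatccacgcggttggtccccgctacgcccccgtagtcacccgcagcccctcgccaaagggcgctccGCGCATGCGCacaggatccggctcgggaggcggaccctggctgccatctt
ANKRD10: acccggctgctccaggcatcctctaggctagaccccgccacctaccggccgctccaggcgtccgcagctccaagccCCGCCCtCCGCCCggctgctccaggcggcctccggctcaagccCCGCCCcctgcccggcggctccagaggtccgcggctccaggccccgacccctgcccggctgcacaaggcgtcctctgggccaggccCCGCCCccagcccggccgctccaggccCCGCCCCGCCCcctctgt
SLC7A1: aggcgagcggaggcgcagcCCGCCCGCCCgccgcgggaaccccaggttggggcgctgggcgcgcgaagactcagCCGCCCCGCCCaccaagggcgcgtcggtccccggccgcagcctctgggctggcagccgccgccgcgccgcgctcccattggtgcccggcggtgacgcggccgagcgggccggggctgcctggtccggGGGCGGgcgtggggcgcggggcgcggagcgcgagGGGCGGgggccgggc
The 250-base window of NAA16 holds GCATGCGC on both strands, as 2 overlapping matches. The RefSeq start of NAA16 lies 62 bases inside the gene as the authors' table places it, and the marked site is within that stretch. For LIG4 the 2 starts differ by 19 bases. RefSeq windows were matched by symbol for 161 of the 187 genes. Of these, 17 (10.6%) held GCATGCGC on either strand in a window, against 540 of 8770 tested protein-coding genes (6.16%) and 3.22% of all genes in the RefSeq table. Among the 17 are COMMD6, NAA16, LIG4 and UCHL3, 4 of the 9 lowest fold changes of the 187. The windows of COMMD6 and UCHL3 overlap and share the same site, so the 17 genes are not all separate occurrences. ABHD13, whose start lies close to that of LIG4, is also among the 17. The 17 genes had a median log2 fold change of -0.046, with 11 lower in Y483E, and the 144 without it had -0.050, with 108 lower. GGGCGG was in 72.7% of the 161 and 77.5% of tested protein-coding genes, with 6 matches each in ANKRD10 and SLC7A1, which lie at opposite ends of the fold changes. CCAAT was in 44.1% of the 161 and 42.2% of tested protein-coding genes. The motifs were chosen after the sequences had been seen, and a match is a run of letters, not a bound site.

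ANKRD10, which encodes an ankyrin repeat protein, had the lowest fold change among genes whose groups did not overlap. It spans chr13:110878540-110915069 on the minus strand. It had 13.7, 14.1 and 13.2 FPKM in the Y483E replicates, against 15.9, 18.8 and 18.4 FPKM in the Y483F replicates. All Y483E libraries lay below all Y483F libraries, with Y483F replicate 1 nearest to them. The log2 fold change was -0.35 ± 0.069 (SE), with a limma adjusted p of 0.257. In the authors' deposited table its log2 fold change was -0.38 and its adjusted p 0.0025, and edgeR gave an adjusted p of 0.101 over 6 libraries.

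ZIC5 and ZIC2, zinc finger transcription factors of the early nervous system, are neighbours on opposite strands. ZIC5 had 10.5, 9.86 and 9.42 FPKM in the Y483E replicates, against 12.2, 12.2 and 12.5 FPKM in the Y483F replicates. Each group kept to a narrow range and the groups did not overlap. The log2 fold change was -0.28 ± 0.051 with a limma adjusted p of 0.257, and the authors' deposited table gives an adjusted p of 0.0238. ZIC2, the more abundant of the pair, had 41.6, 38.1 and 39.1 FPKM in the Y483E replicates, against 45.4, 43.5 and 44.1 FPKM in the Y483F replicates. It was again lower in every Y483E library, with a log2 fold change of -0.16 ± 0.046 and a limma adjusted p of 0.308.

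MTRF1, a release factor of mitochondrial translation, and NAA16, an auxiliary subunit of the N-terminal acetyltransferase NatA, lie next to each other on opposite strands, and each overlaps a gene on the other strand. NAA16 had 7.997, 7.51 and 7.42 FPKM in the Y483E replicates, against 8.79, 9.62 and 9.72 FPKM in the Y483F replicates. MTRF1 had 4.22, 4.5 and 4.07 FPKM in the Y483E replicates, against 5.32, 5.14 and 5.19 FPKM in the Y483F replicates. In both genes all Y483E libraries were the lower ones. The log2 fold change was -0.26 ± 0.056 for NAA16 (limma adjusted p of 0.257) and -0.24 ± 0.055 for MTRF1 (limma adjusted p of 0.258). NAA16 has an adjusted p of 0.0462 in the authors' deposited table.

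LCP1 encodes plastin 2, an actin-bundling protein best known from leukocytes. It had 25.4, 22.1 and 22.8 FPKM in the Y483E replicates, against 31.3, 26.2 and 26.2 FPKM in the Y483F replicates. Replicate 1 was the highest library of each group, and the groups did not overlap. The log2 fold change was -0.24 ± 0.084, with a limma adjusted p of 0.351, and it was -0.16 without Y483F replicate 1. LIG4, the ligase that seals ends in non-homologous joining of DNA breaks, had 7.43, 6.47 and 5.99 FPKM in the Y483E replicates, against 7.87, 8.13 and 7.84 FPKM in the Y483F replicates. It too was lower in every Y483E library, at a log2 fold change of -0.23 ± 0.074 and a limma adjusted p of 0.323.

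COMMD6, a member of the COMMD family that takes part in endosomal sorting and NF-kappaB control, had the lowest fold change of the 187. It had 6.54, 4.32 and 4.51 FPKM in the Y483E replicates, against 5.58, 7.46 and 7.72 FPKM in the Y483F replicates. Replicate 1 went the other way from replicates 2 and 3. The log2 fold change was -0.38 ± 0.16 over 6 libraries (limma adjusted p of 0.407), 0.20 between the libraries numbered 1 and -0.67 between those numbered 4 and 5. ARGLU1 showed the same split, with 28.5, 31.2 and 25.9 FPKM in the Y483E replicates, against 26.6, 40.8 and 40.0 FPKM in the Y483F replicates. Its log2 fold change was -0.30 ± 0.16 over 6 libraries (limma adjusted p of 0.494), 0.10 for number 1 and -0.49 for numbers 4 and 5. It was -0.49 without Y483F replicate 1 and -0.19 without Y483F replicate 2. Between numbers 4 and 5 alone, edgeR gave adjusted p-values of 0.000122 for COMMD6 and 0.000106 for ARGLU1. That fit was added after the data were seen and called 15.0% of its 16308 genes. It leaves out the libraries numbered 1, in which both genes went the other way.

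**Figure D3:**
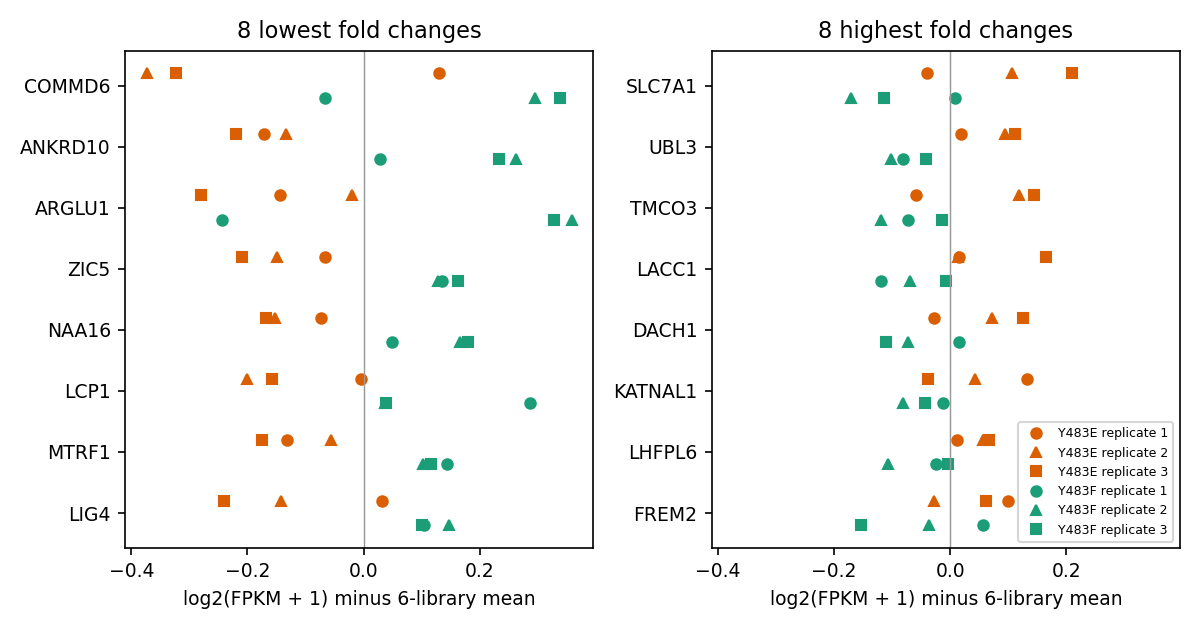
Values of the 8 genes with the lowest (left) and the 8 with the highest (right) log2 fold changes, as log2(FPKM + 1) minus the gene's mean over 6 libraries (x axis). Orange marks Y483E and green Y483F, and circles, triangles and squares are replicates 1, 2 and 3. ANKRD10, ZIC5, NAA16, LCP1, MTRF1 and LIG4 have all orange points left of all green ones, while the circles of COMMD6 and ARGLU1 lie in the opposite order to their triangles and squares.

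At the other end, SLC7A1 had 32.4, 36.0 and 38.7 FPKM in the Y483E replicates, against 33.5, 29.5 and 30.8 FPKM in the Y483F replicates. Its groups overlapped, because Y483F replicate 1 was above Y483E replicate 1. The log2 fold change was 0.18 ± 0.076 (limma adjusted p of 0.40), -0.049 between the libraries numbered 1 and 0.30 between those numbered 4 and 5. In the later-added fit of numbers 4 and 5, which called 15.0% of its genes, edgeR gave SLC7A1 an adjusted p of 0.00023. UBL3, a ubiquitin-like protein anchored in membranes, lies close to it and had 9.22, 9.77 and 9.90 FPKM in the Y483E replicates, against 8.54, 8.41 and 8.81 FPKM in the Y483F replicates. All its Y483E libraries were above all its Y483F libraries, with a log2 fold change of 0.15 ± 0.048 and a limma adjusted p of 0.327.

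LACC1, an enzyme of purine nucleoside metabolism in macrophages, was close to the lower limit of expression, with 1.27, 1.26 and 1.51 FPKM in the Y483E replicates, against 1.07, 1.14 and 1.23 FPKM in the Y483F replicates. The groups did not overlap, at a log2 fold change of 0.13 ± 0.084. TMCO3 (a predicted membrane antiporter), DACH1 (a transcriptional cofactor), KATNAL1 (a microtubule-severing katanin subunit), LHFPL6 and FREM2 (an extracellular matrix protein of epithelial attachment) had log2 fold changes of 0.14, 0.11, 0.092, 0.090 and 0.089. Of these 5, the groups overlapped in all but LHFPL6. Single libraries moved several of these values: LACC1 was 0.079 without Y483E replicate 3, KATNAL1 0.048 without Y483E replicate 1 and LHFPL6 0.059 without Y483F replicate 2. FREM2 was 0.14 without Y483F replicate 1 and 0.034 without Y483F replicate 3. The limma adjusted p was 0.468 or higher for these 5 and for LACC1.

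Neighbouring genes often lay on the same side. Of 186 adjacent pairs along the chromosome, 121 (65.1%) had fold changes of the same sign, against 55.2% of 10888 adjacent pairs of tested protein-coding genes on all chromosomes. Measured from each chromosome's own median, 109 pairs (58.6%) lay on the same side, against 52.1%. The longest run of lower genes held 13, from TM9SF2 to ABHD13, with a median log2 fold change of -0.13. It includes ZIC5, ZIC2, TPP2 (a large cytosolic peptidase), ARGLU1 and LIG4. With 72.7% of the 187 genes lower, long runs can arise, and the run was not compared with those of other chromosomes.

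Among the 187 genes, 15 pairs stood head to head, on opposite strands with start sites within 1000 bases. Both genes were lower in Y483E in 10 pairs (66.7%), both were higher in 1 (POLR1D and LNX2), and they differed in direction in 4 (26.7%). Over all 850 such pairs of tested protein-coding genes, both were lower in 24.8% and they differed in direction in 44.5%. Of single genes, 72.7% of the 187 were lower, against 44.9% of tested protein-coding genes. The pairs were not measured from each chromosome's own median, so their counts include this difference. In the pair UCHL3 and COMMD6, both were among the 9 lowest of the 187. UCHL3, a ubiquitin hydrolase, had 2.20, 1.94 and 1.34 FPKM in the Y483E replicates, against 2.67, 2.36 and 1.83 FPKM in the Y483F replicates. It was lower within each replicate number while the groups overlapped, at a log2 fold change of -0.22 ± 0.14, and it was named after its values were seen. Leaving out Y483E replicate 3 gave -0.092, and leaving out Y483F replicate 1 gave -0.14. LIG4 shares its start region with ABHD13, whose log2 fold change was -0.046.

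In 4 pairs of high summed level both genes were lower. USPL1 (a SUMO protease) and HMGB1 had log2 fold changes of -0.12 and -0.027, and BORA (an activator of Aurora A) and MZT1 of -0.11 and -0.077. CUL4A (a ubiquitin ligase scaffold) and PCID2 (a subunit of the TREX-2 export complex) had -0.086 and -0.12, and NHLRC3 and PROSER1 had -0.19 and -0.057. Of these genes, the groups did not overlap in PCID2 and PROSER1.

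**Figure D4:**
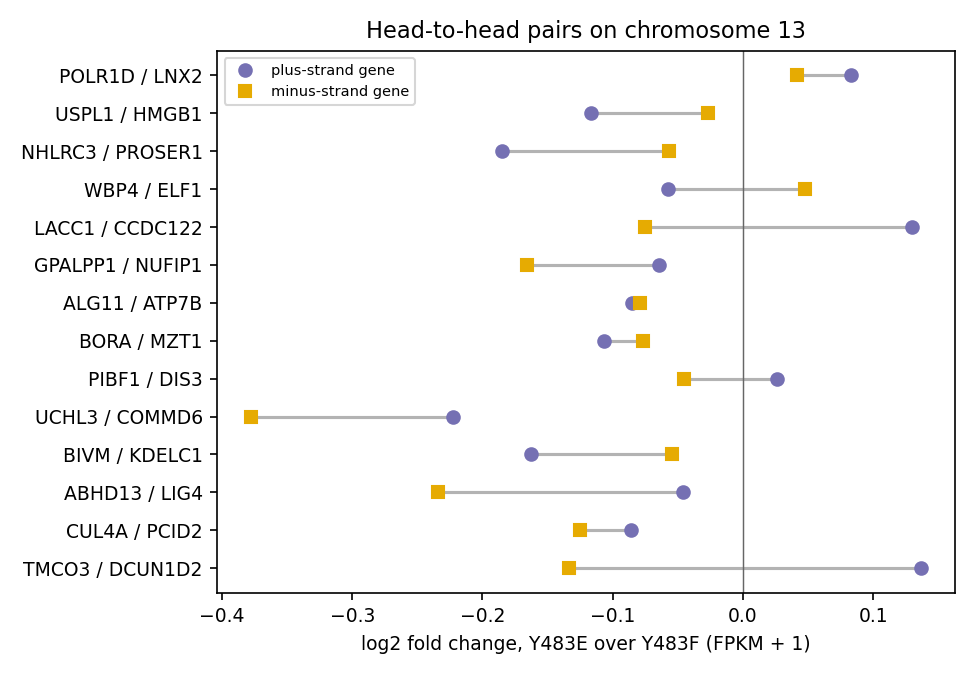
Head-to-head pairs, 14 of the 15, in order along the chromosome, with the log2 fold change of Y483E over Y483F on FPKM + 1 (x axis) of the plus-strand gene (circle) and the minus-strand gene (square). In 9 of the pairs drawn both symbols lie below 0, in 1 both lie above it, and in 4 they lie on opposite sides.

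The genes were also grouped by the roles of their proteins, in lists written with earlier results known. Over all 6 libraries each list had more lower than higher members, as had the 187 genes together (72.7% lower). Of the 48 genes in no list, 30 (62.5%) were lower. No gene of any list passed the limma threshold. Within numbers 4 and 5, 7 of the 16 signalling genes (median 0.019) and 10 of the 23 membrane traffic genes (median 0.011) were lower. Of 14 cell cycle and spindle genes, 13 were lower, with a median of -0.074. CHAMP1, a protein of kinetochore attachment and the last of the 187 along the chromosome, was among them, with 14.3, 13.3 and 14.8 FPKM in the Y483E replicates, against 15.9, 15.8 and 16.4 FPKM in the Y483F replicates. DIAPH3, an actin-nucleating formin used in cell division, was the one higher, with 9.69, 9.63 and 10.1 FPKM in the Y483E replicates, against 9.15, 8.92 and 9.38 FPKM in the Y483F replicates. Neither gene's groups overlapped, and the limma adjusted p was 0.310 for CHAMP1 and 0.470 for DIAPH3.

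The list of ubiquitin and protein folding was drawn broadly and holds COMMD6 and KCTD12, described here by other roles. Of its 22 genes, 18 were lower, with a median of -0.080. The most abundant of them, HSPH1 (a cochaperone of HSP70) and KCTD12 (an auxiliary subunit of GABA-B receptors from the KCTD family), averaged 25.2 ± 1.65 and 20.96 ± 1.43 FPKM in Y483E, against 26.7 ± 1.05 and 22.1 ± 0.578 FPKM in Y483F. Of 15 genes of RNA processing and nuclear transport, 12 were lower, with a median of -0.070. RBM26, an RNA-binding protein of nuclear RNA decay, had 11.3, 11.0 and 10.5 FPKM in the Y483E replicates, against 12.2, 12.7 and 12.8 FPKM in the Y483F replicates, with no overlap. PSPC1 (a paraspeckle protein), near the start of the chromosome's genes, had a log2 fold change of 0.058, and IPO5 one of -0.0056.

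Of 28 genes of chromatin, transcription and DNA repair, 21 were lower, with a median of -0.041, and in 6, among them ZIC2, ZIC5, LIG4 and KLF5 (a Krüppel-like factor), all Y483E libraries lay below all Y483F libraries. That is 21.4% of the list, against 7.37% of all genes tested and 14.4% of the 187. The same share was 26.7% in the RNA processing list, 21.4% in the cell cycle list and 17.4% in the membrane traffic list. It was 9.52% in the mitochondrial and metabolic list, 9.09% in the ubiquitin and folding list and 0% in the signalling list. Of 21 mitochondrial and metabolic genes, 15 were lower, with a median of -0.046. Of 16 signalling and adhesion genes, 13 were lower, with a median of -0.030. The groups overlapped in all 16, including EFNB2 (an ephrin ligand), with 21.6 ± 1.59 FPKM in Y483E and 21.7 ± 2.16 FPKM in Y483F, and STK24 (a STE20-like kinase), with 8.18 ± 0.454 FPKM in Y483E and 8.28 ± 0.425 FPKM in Y483F. Of 23 genes of membrane traffic and the cytoskeleton, 14 were lower, with a median of -0.019. TM9SF2 and LAMP1, proteins of Golgi and lysosome membranes, had log2 fold changes of -0.10 and -0.089. MPHOSPH8, a reader of methylated histone H3 and the first of the 187 along the chromosome, belonged to no list and averaged 12.6 ± 0.209 FPKM in Y483E and 12.2 ± 0.748 FPKM in Y483F. With Y483F replicate 1 left out, 8 of the 15 RNA processing genes were lower, with a median of -0.0072, 10 of the 14 cell cycle genes, with -0.025, and 11 of the 21 mitochondrial and metabolic genes, with -0.018. The ubiquitin and folding list then had 16 of 22 lower, with a median of -0.052, the chromatin list 15 of 28, with -0.032, the signalling list 9 of 16, with -0.028, and the membrane traffic list 14 of 23, with -0.017.

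Ranked by the median over tested protein-coding genes, chromosome 13 with all its 199 genes was the third lowest of 23 chromosomes, at -0.052. Chromosomes 21 and 20 were lower, at -0.13 over 106 genes and -0.089 over 304 genes, and chromosome 18 was the highest, at 0.12 over 157 genes. The chromosomes also differed in which libraries stood apart. For chromosome 21, all 3 Y483E medians lay below 0 and all 3 Y483F medians above it, whereas for chromosome 13 Y483F replicates 2 and 3 lay at 0.0017 and -0.0083. Without Y483F replicate 1 the medians of chromosomes 21, 20 and 18 were -0.13, -0.075 and 0.15, against -0.024 for the 187 genes. DNA was not measured in the files analysed here.

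**Figure D5:**
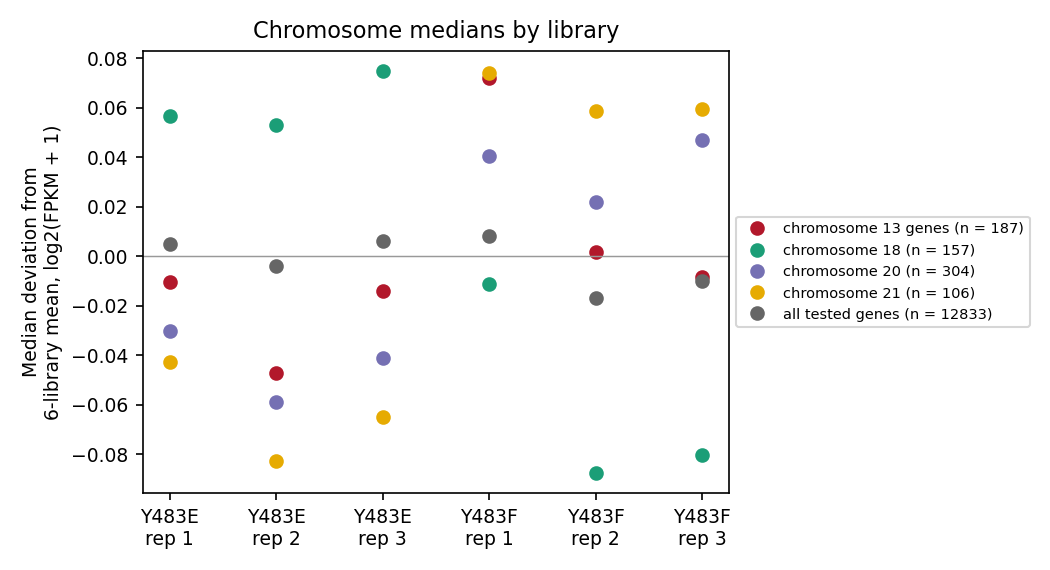
Median deviation of genes from their mean over 6 libraries (y axis, log2(FPKM + 1)) in each library (x axis), for the 187 chromosome 13 genes, the tested protein-coding genes of chromosomes 18, 20 and 21, and all 12833 tested genes. The chromosome 13 point of Y483F replicate 1 is at 0.072, beside that of chromosome 21, and those of Y483F replicates 2 and 3 are at 0.0017 and -0.0083, near all tested genes.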

How the data were processed

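Poly-A RNA of 6 libraries was measured by sequencing. The submitters' processing notes name DESeq2, DESeq, featureCounts 1.5.0-p3, HISAT2 2.0.5 and StringTie 1.3.3b. What each did and the genome build are not given in the sources used here. The deposited tables hold the authors' FPKM values for every gene and, for genes at an unadjusted p-value under 0.05, the authors' raw read counts, their signal (counts divided by a size factor), their log2 fold changes and their p-values.

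Here, limma 3.58.1 (lmFit, eBayes with a trend, R 4.3.3) was run on log2(FPKM + 1) for the 12833 genes that averaged 1 FPKM or more, two-sided, with Benjamini-Hochberg adjustment over all of them and a threshold of 0.05. Multiplying FPKM by gene length and library total gave whole reads within 0.01. The totals came from the authors' listed counts, so a match with these is largely built in. These reads were tested with DESeq2 1.42.0 and with the quasi-likelihood test of edgeR 4.0.16 (TMM, filterByExpr). The edgeR fit was tested on simulated data, as was limma. Added after seeing the data were edgeR fits of libraries 4 and 5, with a term for library number 1 against the others, and with a replicate block. Depth was 17204498 to 23284592 reads per library, which limits genes of few reads.

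The genes and role lists were chosen with earlier results of these data known, and 3 genes of unsure role (ANKRD10, CCDC122 and PROSER1) were taken out of the role lists after their values were seen. Genes were named by level, by the 8 lowest and 8 highest fold changes, by calls, by bin, by role list and by pair. Others named were chosen after their values were seen. Chromosomes compared are 1 to 22 and X. 1 head-to-head pair is counted but not reported here by name.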

Additional observations from a re-analysis of the deposited data

How the results depend on the processing

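The median log2 fold change of the 187 genes stayed below 0 in every alternative run and moved by less than the SD of the median between libraries of a group (0.034). Leaving out each library gave medians from -0.062 to -0.024, 110 to 147 lower genes, and 0 to 0 calls by limma among the 187 and among all genes. Calls depended on the setting, and the cause was not tested. Among all genes tested, against 0 in limma, array weights gave 1888, libraries 4 and 5 alone 733, edgeR 7, edgeR with DESeq2 size factors 7, DESeq2 126, edgeR on libraries 4 and 5 alone 2454 and edgeR with a batch term 155. Among the 187, array weights gave 21, libraries 4 and 5 alone 10, DESeq2 3, edgeR on libraries 4 and 5 alone 22 and edgeR with a batch term 5. With a mean of at least 5 FPKM, 89 of the 118 genes left were lower, since fewer genes were tested.

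Of 391 values of the 18 genes followed, 353 stayed on the same side of the threshold, 38 came past it (12 under array weights and 10 in edgeR on libraries 4 and 5 alone), and 0 reversed. Deviations of libraries with the same replicate number correlated at 0.0562, 0.1394 and -0.0949. Y483E replicate 1 correlated best with its own number, and Y483E replicates 2 and 3 did not. With 3 libraries in each group, these values cannot decide whether the numbers pair the libraries. With a replicate block, edgeR called 6 genes, none of them among the 187, and limma 0.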
